A study of Mus musculus with 10 samples.

Results

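The immunity-related GTPases are a family of interferon-induced proteins, and 6 of its mouse genes are described here: Iigp1, Ifi47, Irgm1, Irgm2, Igtp and Tgtp1. They were found as every probe set of the array whose platform annotation names one of the genes, which gave 7 of 45101 probe sets for 6 of 19324 named genes. Iigp1 has 2 probe sets (1419042_at and 1419043_a_at). The probe set of Tgtp1 (1449009_at) also names Tgtp2, so no value belongs to Tgtp1 alone. Ifi47 (1417292_at), Irgm1 (1418825_at), Irgm2 (1417793_at) and Igtp (1417141_at) have 1 each. All 7 passed the filter on dim probe sets. The genes were picked with the smoke-against-control result of these arrays known, so their differences between the groups are given as a description, without a test, and support nothing.

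The lungs came from C57BL/6J mice aged 2 weeks, with 1 Affymetrix expression array for each mouse. The 4 control mice were kept in filtered air apart from the exposed animals. The 6 smoke mice were placed with their mother in a cigarette smoke chamber from the age of 1 day. Sessions lasted 1 hour daily in the first 7 days and 2 hours daily in the next 7 days, at a mean particulate matter of 90 mg per cubic metre. The labels give neither sex nor litters, so errors measure the spread between these lungs, and the number of arrays limits their precision.

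Immunity-related GTPases are made in response to interferon gamma, and in many cells also to type I interferon, and they protect single cells against bacteria and protozoa that live in vacuoles. The effector members Iigp1 (also called Irga6), Tgtp1 (Irgb6) and Ifi47 (Irgd) carry a conserved lysine in the nucleotide-binding loop, load onto the membrane of the parasite's vacuole and help to break it. The regulator members Irgm1, Irgm2 and Igtp (Irgm3) have a methionine in place of that lysine, sit on the cell's own membranes and hold the effectors inactive there. Irgm1 is also known in mice for a role in autophagy and in survival of blood-forming cells.

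Some arrays stood apart from the rest. The actin 3' to 5' ratio, a sign of RNA integrity, was 31.6 in smoke array 1 and 29.4 in smoke array 2, against 3.96 to 10.4 in controls, while smoke arrays 5 and 6 had 2.18 and 2.98. The same ratio for Gapdh was 4.76 in smoke array 1 and 9.16 in smoke array 2, against 4.82 to 5.89 in controls. It was 1.40 and 2.13 in smoke arrays 5 and 6, so the 2 ratios did not both set smoke array 1 apart. Smoke arrays 5 and 6 were also the smoke arrays with high Xist, a marker of female sex, as were control arrays 2 and 4. Values without each of these pairs of smoke arrays are given beside the members' values.

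In the RefSeq symbol table for GRCm38.p6, 5 of the 6 members lie on chromosome 11. Irgm1, Tgtp1 and Ifi47 belong to a run of family loci in which Tgtp2 is the direct neighbour of Ifi47, and Igtp lies between Gm12250 and Irgm2 in a second run. Promoter windows from RefSeq, 250 bases before to 50 after the annotated start, matched 5 members by symbol. They were searched on both strands for the core of the interferon-stimulated response element, GAAA, any 2 bases and GAAA again, which complexes with IRF proteins bind, and for the gamma-activated site pattern TTCNNNGAA, which reads the same on both strands. The stretches of 4 members are shown because they carry the matches, in capitals, with other bases in lower case, in the direction of transcription.
Igtp, chr11:58199487-58199556, plus strand, GRCm38.p6: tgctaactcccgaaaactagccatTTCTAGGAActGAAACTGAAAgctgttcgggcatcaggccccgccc
Irgm2, chr11:58214878-58214947, plus strand, GRCm38.p6: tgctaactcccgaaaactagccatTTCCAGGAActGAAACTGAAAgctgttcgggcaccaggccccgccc
Tgtp1, chr11:48992289-48992358, minus strand, GRCm38.p6: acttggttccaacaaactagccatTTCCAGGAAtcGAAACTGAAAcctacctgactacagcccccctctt
Irgm1, chr11:48871410-48871485, minus strand, GRCm38.p6: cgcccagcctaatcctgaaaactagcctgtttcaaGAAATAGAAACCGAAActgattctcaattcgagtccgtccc

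The response element core was present in 4 of the 5 member windows, and 3 of those, Igtp, Irgm2 and Tgtp1, also held the gamma-activated site pattern within 10 bases upstream of it. The element began 34 bases before the start in Igtp, 64 in Irgm2 and 77 in Tgtp1. Irgm1 had 2 overlapping matches of the element, 30 and 24 bases before the start, and no match of the second pattern. The Ifi47 window held neither pattern, which says only that these letters are not in that window. Over all 32851 promoter windows, 3.44% held the element core, 8.30% the gamma-activated site pattern and 0.131% both within 10 bases. The Igtp and Irgm2 windows were identical at 72.8% of the positions of their alignment, gaps counted.

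**Figure D1:**
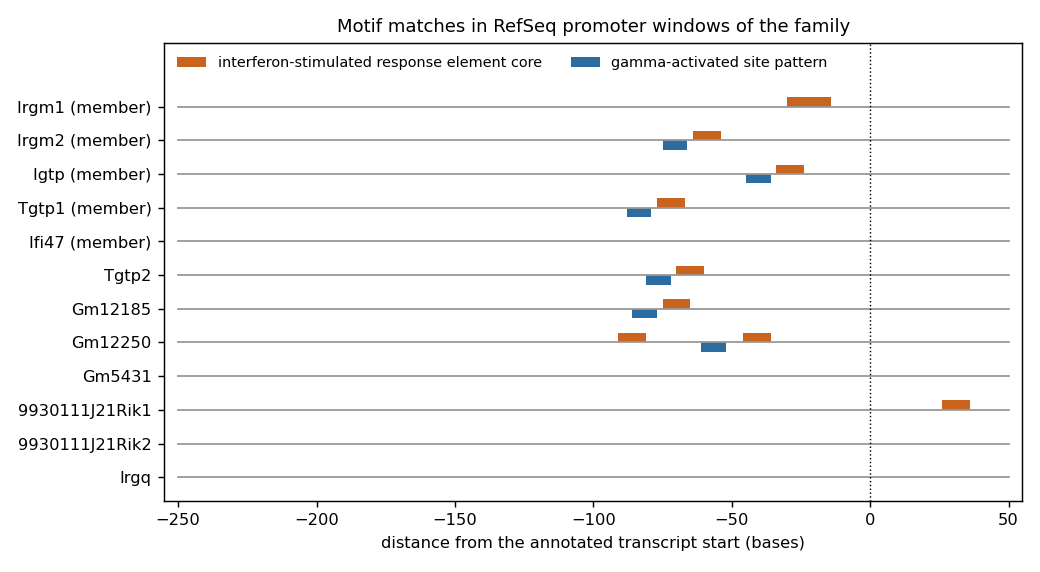
Matches of the interferon-stimulated response element core (orange) and the gamma-activated site pattern (blue) against the distance in bases from the annotated transcript start, for 12 RefSeq promoter windows of the family, 5 of them members. The pair of patterns side by side is seen in Igtp, Irgm2 and Tgtp1 and also in Tgtp2, Gm12185 and Gm12250, and no match lies in the Ifi47 window. Family loci on chromosome 18, Iigp1 among them, are not drawn.

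All 7 probe sets of the 6 genes were lower in smoke lungs than in control lungs. In each of them every smoke array lay below every control array, as was the case in 2.83% of all probe sets tested and 2.11% of genes. The 7 probe sets were among the 146 called lower by limma at an adjusted p under 0.05, which is 0.540% of probe sets tested. Counted by genes with a probe set of their own, 5 of 5 were among the 94 called lower, 0.702% of 13382 genes. Nothing is read from these counts, since the members were chosen on this contrast. The changes ran from -3.37 to -2.39 on the log2 scale, where the median over all genes tested was 0.06. In whole lung, fewer cells that express a gene and less RNA for each cell cannot be told apart.

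Iigp1, the effector first resolved as a crystal structure in the family, had the largest change of the members. In the symbol table it lies on chromosome 18, away from the others. Probe set 1419043_a_at had normalized log2 intensities of 13.66, 13.75, 13.91 and 13.49 in control arrays 1 to 4, and in smoke arrays a lowest value of 9.66, a median of 10.50 and a highest of 10.69. The lowest smoke values were those of arrays 2 and 1, at 9.66 and 9.99, and the groups were separated by 2.80. Its change was -3.37 ± 0.21 (log2, SE; n = 4 control and 6 smoke), 10.4-fold lower, with a 95% confidence interval of 7.51 to 14.3-fold. The second probe set, 1419042_at, read 12.70, 12.84, 13.28 and 12.36 in control arrays 1 to 4, with 9.38, 9.72 and 10.03 as the lowest, median and highest smoke values. Its change was -3.08 ± 0.20, 8.48-fold lower, and the groups were separated by 2.33. The changes of these probe sets differed by -0.29 ± 0.28 (SE), with a 95% interval of -0.93 to 0.35. They did not order the smoke lungs alike: in 1419042_at smoke array 2 was the highest, and in 1419043_a_at it was the lowest. Smoke arrays 1 and 2 together lay 0.76 below the other smoke arrays in 1419043_a_at and 0.01 below them in 1419042_at. Without smoke arrays 1 and 2 the changes were -2.96 for 1419043_a_at and -2.99 for 1419042_at, and without smoke arrays 5 and 6 they were -3.58 and -3.19.

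Tgtp1, an effector that coats vacuoles early, was read with its near copy Tgtp2. Their shared probe set had log2 intensities of 13.20, 13.63, 13.85 and 13.11 in control arrays 1 to 4, and a lowest of 9.94, a median of 10.72 and a highest of 11.09 after smoke. The groups were separated by 2.02, with smoke arrays 4 and 3 the lowest. The change was -2.87 ± 0.26, 7.30-fold lower (95% interval 4.94 to 10.8-fold). Leaving out the smoke arrays 1 and 2 made it -2.89, and leaving out 5 and 6 made it -3.11.

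Ifi47, an effector that also loads onto vacuoles, had values of 12.65, 13.08, 12.94 and 12.42 in control arrays 1 to 4. After smoke the lowest, median and highest were 9.56, 9.99 and 10.26, and the gap between the groups was 2.16. The change was -2.83 ± 0.21, 7.13-fold lower (95% interval 5.20 to 9.79-fold). Smoke arrays 2, 5 and 6 lay close together at 10.21, 10.26 and 10.25, above the other smoke arrays. Leaving out smoke arrays 1 and 2 gave a change of -2.77, and leaving out 5 and 6 gave -3.07.

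Irgm2, a regulator of the Golgi membrane, had the widest spread after smoke of the 7 probe sets, with an SD of 0.57 (n = 6) against 0.25 (n = 4) in controls. Its control values were 12.32, 12.45, 12.83 and 12.29, and its smoke values ran from 8.95 in array 1 through a median of 9.75 to 10.19 in array 5. The smoke arrays fell into 3 values from 8.95 to 9.40 and 3 from 10.10 to 10.19. The change was -2.82 ± 0.28, 7.06-fold lower (95% interval 4.62 to 10.8-fold). With smoke arrays 1 and 2 left out it was -2.71, and with 5 and 6 left out -3.11.

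Igtp, a regulator of the endoplasmic reticulum membrane and of lipid droplets, read 11.93, 12.51, 12.83 and 11.86 in control arrays 1 to 4. The lowest, median and highest smoke values were 9.15, 9.76 and 10.06, and the groups were separated by 1.80. The change was -2.63 ± 0.25, 6.18-fold lower (95% interval 4.24 to 9.02-fold). Controls spread more here than in the other members, with an SD of 0.47 (n = 4). The change was -2.73 with either pair of smoke arrays, 1 and 2 or 5 and 6, left out.

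Irgm1, the regulator linked to autophagy and lysosomes, had the smallest change and the smallest gap between the groups, 1.20. Control arrays 1 to 4 read 11.25, 11.67, 11.46 and 10.82, and the smoke arrays had a lowest of 8.25, a median of 8.78 and a highest of 9.62. The change was -2.39 ± 0.28, 5.24-fold lower (95% interval 3.41 to 8.05-fold). Smoke arrays 5 and 6, at 9.62 and 9.44, were the highest. Without them the change was -2.68, and without smoke arrays 1 and 2 it was -2.29. Within the arrays low in Xist (4 smoke, 2 control) it was -2.76, against -1.72 within those high in Xist (2 smoke, 2 control). The part of Xist and RNA integrity in this spread was not tested, and they cannot be told apart in smoke arrays 5 and 6.

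**Figure D2:**
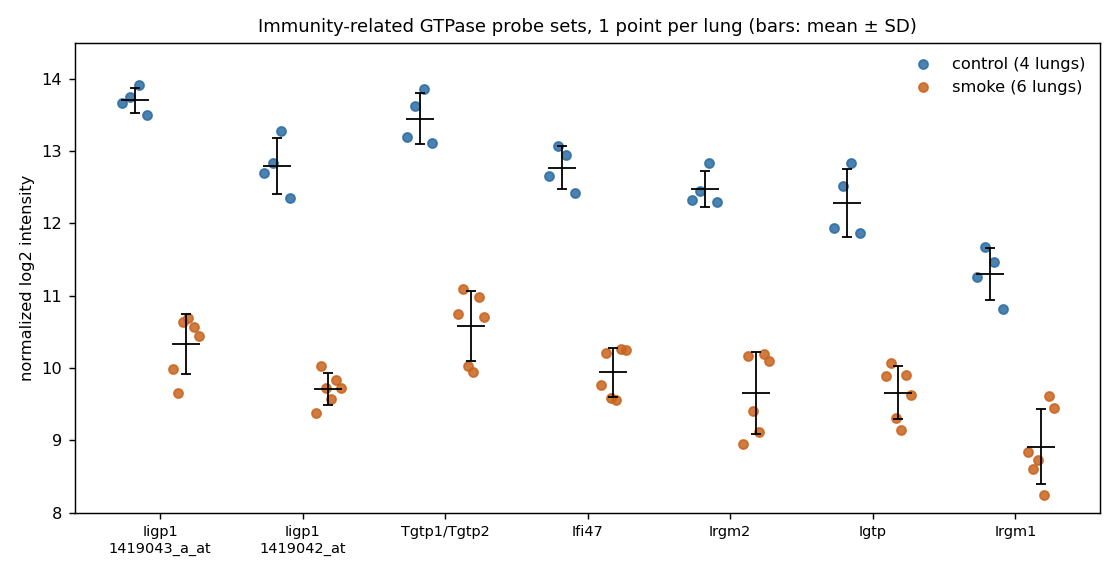
Normalized log2 intensity of the 7 probe sets, 1 point per lung, for 4 control (blue) and 6 smoke (orange) lungs, with bars for the mean ± SD. In each probe set all smoke points lie below all control points, from a gap of 1.20 for Irgm1 to 2.80 for Iigp1 1419043_a_at, and levels of different probe sets are not comparable.

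In order of change, with Iigp1 by its brighter probe set, the genes ran Iigp1, Tgtp1 with Tgtp2, Ifi47, Irgm2, Igtp, Irgm1. The 3 effectors came before the 3 regulators, at -3.37 to -2.83 against -2.82 to -2.39, but that split did not hold in every set of arrays. Irgm2 had a larger change than Tgtp1 with Tgtp2 and than Ifi47 in the low-Xist arrays, at -3.17 against -3.08 and -3.02, and without control array 2, at -2.81 against -2.80 and -2.72. No neighbours in that order differed beyond the spread of their difference across arrays. The largest step, from Iigp1 to Tgtp1 with Tgtp2, was -0.51 ± 0.43 (SE; 95% interval -1.50 to 0.48). Ifi47 and Irgm2, where the effectors meet the regulators, differed by -0.01 ± 0.18. The ends of the order, Iigp1 and Irgm1, differed by -0.98 ± 0.33 (95% interval -1.74 to -0.23), a pair picked as the extremes.

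Each member was also read separately in high-Xist and in low-Xist arrays. In arrays high in Xist (2 smoke, 2 control) the change ran from -3.12 for Iigp1 1419043_a_at to -1.72 for Irgm1, and in arrays low in Xist (4 smoke, 2 control) from -3.54 to -2.76. All 7 probe sets were lower after smoke in both. Smoke arrays high in Xist read higher than smoke arrays low in Xist in each of the 7, with mean log2 levels of 10.14 against 9.41 for Irgm2 and of 9.78 against 9.67 for Iigp1 1419042_at. In controls the order was the opposite in each of the 7, with 12.37 in high-Xist against 12.58 in low-Xist arrays for Irgm2 and 12.60 against 12.99 for Iigp1 1419042_at. The part of sex and of RNA integrity in these levels was not tested. The high-Xist smoke arrays, 5 and 6, also had the lowest actin ratios, 2.18 and 2.98, so the 2 cannot be told apart there.

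Among lungs of the same group most pairs of member probe sets correlated positively, a comparison that does not use the contrast. After each group's mean was removed, the Pearson correlation over the 10 arrays had a median of 0.60 over the 21 pairs of probe sets. The highest was 0.95, between Igtp and the Tgtp1 and Tgtp2 probe set, and Ifi47 stood at 0.87 with the latter and 0.82 with Irgm2. Over the smoke arrays alone the median was 0.51 and the lowest -0.78. These points share arrays and normalization, and no values for pairs of other genes are given beside them, so they are a description. Control array 3 lay above its group's mean in 7 of 7 probe sets and control arrays 1 and 4 below it in 7 of 7. Smoke array 5 was above its group's mean in 7 of 7, and smoke array 4 below in 6 of 7.

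Iigp1 1419043_a_at was the exception. It correlated at -0.43 with Tgtp1 and Tgtp2, -0.32 with Igtp and 0.10 with the other Iigp1 probe set. Within groups its correlation with the log2 actin ratio was -0.57, where that of 1419042_at was 0.05. Irgm1 had -0.49, Irgm2 -0.42, Ifi47 -0.18, Tgtp1 with Tgtp2 0.10 and Igtp 0.25. The part of RNA integrity was not tested.

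**Figure D3:**
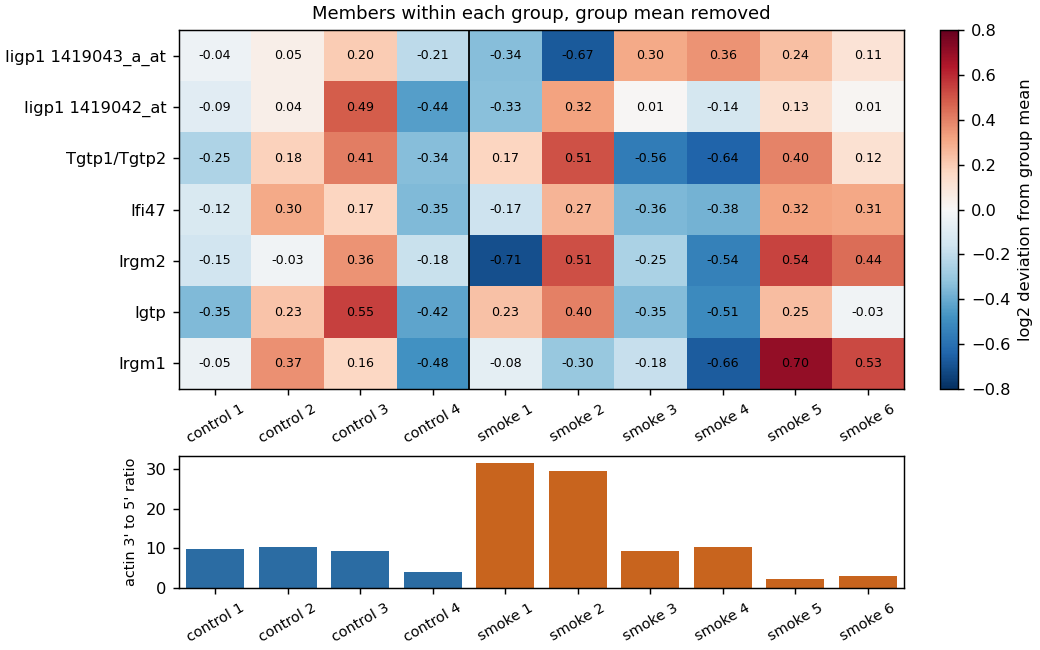
Deviation of each member probe set (rows) from its group mean on each array (columns), in log2 units, above a bar chart of the actin 3' to 5' ratio of the same arrays. Control arrays 1 and 4 are low and control array 3 is high in all rows, and Iigp1 1419043_a_at is low in smoke arrays 1 and 2, where the actin ratios are 31.6 and 29.4.

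The within-group patterns of other genes were set against the mean of the members (1 probe set a gene, standardized). Iigp1 entered this mean by 1419043_a_at, the probe set described above as the exception. The most alike was Ms4a4d, a four-pass membrane protein of the MS4A family, at r = 0.94 over 10 arrays. Rpa3, a subunit of the single-stranded DNA-binding replication protein A, followed at 0.93. Next came Trmt2b, a tRNA methyltransferase, at 0.92, the thiamine transporter Slc19a2 at 0.92, and the mitochondrial fatty acid dehydrogenase Acadl at 0.91. Tubb1, the tubulin of platelets, had 0.91, the proteasome subunit Psmd12 0.90 and the clathrin-uncoating cochaperone Dnajc6 0.89. The least alike were Spata3 at -0.92, the arginine methyltransferase Carm1 at -0.92 and Gm2102 at -0.91. Over the 13374 other genes 95% lay between -0.65 and 0.69, a wide range for 10 arrays. Of the 8 most like genes none passed the test between groups, and Ms4a4d came nearest, at a log2 change of -1.43 ± 0.30 (limma, adjusted p = 0.0688).

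Among other loci of the family, Gm4951 (Ifgga2), of the run that holds Iigp1, fell by 3.37 ± 0.31 (limma, adjusted p = 0.000181). It read 10.31, 10.87, 11.34 and 10.59 in control arrays 1 to 4 and 6.37, 7.57 and 7.85 as the lowest, median and highest after smoke. The gap of 2.46 lies in the range of the members. Gm12185, whose symbol-table synonym is Irgb2b1 and which lies in the Irgm1 run, had a change of -0.11 ± 0.30 (adjusted p = 0.912), reading 7.83 to 8.15 on control arrays and 7.32 to 8.67 on smoke arrays. Its promoter window holds the same pair of patterns as Tgtp1 and is identical to that of Tgtp2 at 93.4% of the positions of their alignment, gaps counted. Both stretches are shown because most of their letters are alike. The change of -0.11 is that of Gm12185, while -2.87 is that of the probe set shared by Tgtp2 and Tgtp1. No value belongs to Tgtp2 alone, and the difference was not tested.
Gm12185, chr11:48927223-48927292, minus strand, GRCm38.p6: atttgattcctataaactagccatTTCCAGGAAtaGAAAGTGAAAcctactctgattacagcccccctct
Tgtp2, chr11:49064248-49064317, minus strand, GRCm38.p6: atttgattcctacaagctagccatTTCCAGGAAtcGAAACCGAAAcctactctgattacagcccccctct

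Irgq, a divergent locus of the family, had a change of -0.16 ± 0.19 (limma, adjusted p = 0.805) and a promoter window with neither pattern. Its second probe set and that of Irgc1, the family member of the testis, lay below the filter. Irgc1 read 3.98 to 5.75 in controls and 3.98 to 6.48 after smoke, where 3.98 is the floor set on dim values. A probe set shared by Gm4070 and Gvin1, very large interferon-induced GTPases of a different family, fell by 2.39 ± 0.24 (adjusted p = 0.000295). By gene, 1 of the 3 other loci tested was lower, against 0.702% of all genes.

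**Figure D4:**
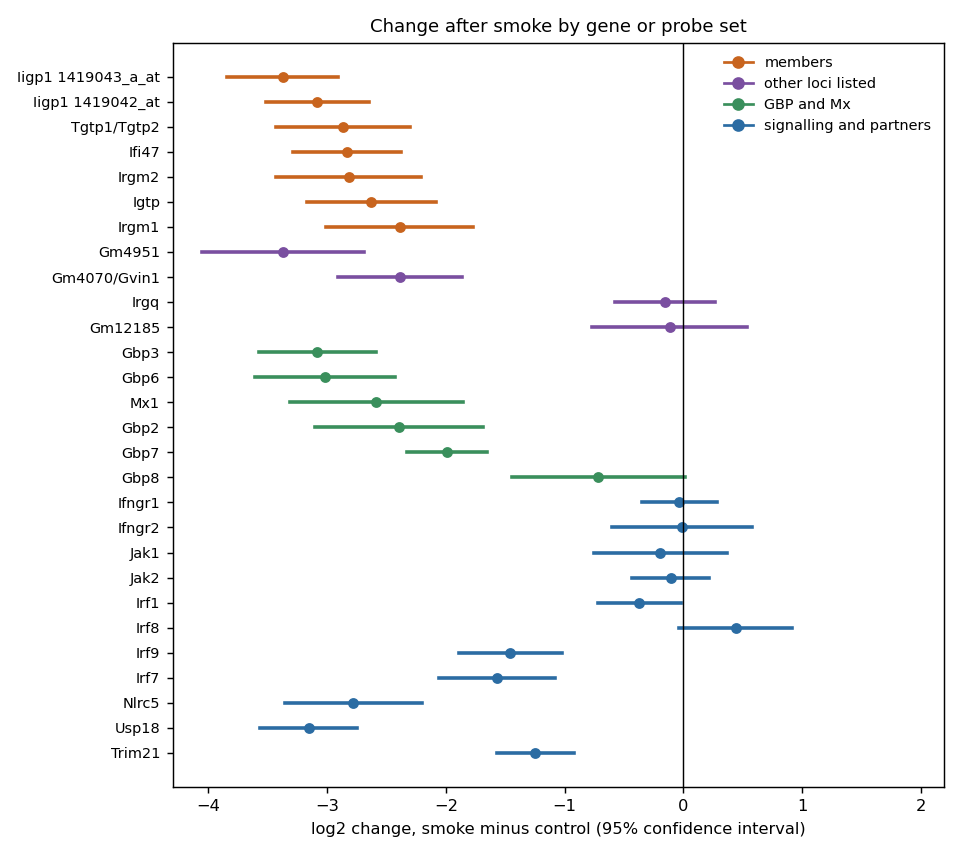
Log2 change, smoke minus control, with 95% confidence intervals from the limma fit, for the members (orange), other listed loci (purple), guanylate-binding and Mx proteins (green) and signalling or vacuole genes (blue). The members lie between -3.37 and -2.39, Gm4951 lies with them at -3.37, and Irgq, Gm12185 and both interferon gamma receptor chains have intervals that include 0.

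Upstream of the family, interferon gamma binds Ifngr1 and Ifngr2, which act through the kinases Jak1 and Jak2, and type I interferons act through a complex that contains Stat2 and Irf9. Of 34 tested genes of interferon signalling 4 were lower and none higher, and 30 did not pass, where 0.725% of all genes changed either way. The list's median change was -0.11. In 8 of the 34 every smoke array lay below every control array, against 2.11% of all genes. The signalling list was chosen with earlier results of these data known, so its counts are a description.

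The ligand Ifng lay below the filter, at 4.56 to 5.92 in controls and 3.98 to 6.88 after smoke, and the groups overlapped. None of the 5 tested ligands and inducers, 9 receptors or 3 kinases passed, with medians of -0.12, -0.03 and -0.11. Ifngr1 had a change of -0.03 ± 0.15 (95% interval -0.35 to 0.28), Ifngr2 of -0.01 ± 0.27, Jak1 of -0.19 ± 0.26 and Jak2 of -0.11 ± 0.15. Dimmer probe sets of Jak1, at -0.93 and -2.004, and of Jak2, at -0.87, did not pass either.

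Of 10 tested transcription factors 3 fell. Nlrc5, the transactivator of MHC class I genes, fell by 2.78 ± 0.26, from 10.03, 10.71, 11.17 and 10.20 in control arrays 1 to 4 to a range of 7.33 to 8.08 (limma, adjusted p = 0.000207). Irf9 fell by 1.46 ± 0.20 (adjusted p = 0.00381), and Irf7, the amplifier of type I interferon production, fell by 1.57 ± 0.22 (adjusted p = 0.00523). In 5 of the 10, these 3 among them, every smoke array lay below every control array, against 2.11% of all genes. Irf1, an activator induced by interferon gamma, had a change of -0.37 ± 0.16 (adjusted p = 0.474) with overlapping groups, 11.79 to 12.47 against 11.63 to 11.99. Irf8, a factor of macrophages, was at 0.44 ± 0.22 (adjusted p = 0.522), and its dimmer probe set at -1.05. Stat2, singled out after its values were seen, had a change of -3.37 ± 0.73 (adjusted p = 0.0849), with values down to the floor after smoke, while its second probe set was at -0.34 (adjusted p = 0.712).

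Among 7 tested brakes, Usp18, which removes ISG15 and blocks the type I interferon receptor, fell by 3.16 ± 0.19 (limma, adjusted p = 1.14e-05). It read 12.72, 12.78, 12.54 and 12.28 in control arrays 1 to 4 and 8.995 to 9.74 after smoke. The other 6 did not pass, at -0.39 to 0.19. Socs1, the inhibitor of Jak kinases, lay below the filter, at 6.13 to 6.87 in controls and from the floor to 7.54 after smoke.

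The list of partners that place these GTPases on vacuoles was also chosen with earlier results of these data known. It showed 1 lower gene of 29 tested, none higher, and a median of -0.11, against 0.725% of all genes changed. The 1 was Trim21, a ubiquitin ligase that is itself interferon-induced, which fell by 1.25 ± 0.15 (limma, adjusted p = 0.00137), from 11.35 to 11.48 in controls to 9.94 to 10.41 after smoke. Its dimmer probe set was at -0.29 (adjusted p = 0.643). The conjugation genes that direct the effectors were at 0.09 ± 0.21 for Atg5, 0.31 ± 0.34 for Atg7, -0.38 ± 0.23 for Atg12 and 0.33 ± 0.25 for Atg16l1. Map1lc3b was at -0.05 ± 0.15 and Gabarapl2 at -0.06 ± 0.30. Becn1, of the initiation complex, was at -0.14 ± 0.12, and the cargo adaptor Sqstm1 at -0.18 ± 0.32. A second probe set of Atg5, at -0.73, did not pass.

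The guanylate-binding proteins, large GTPases that act beside the family at vacuoles, and the Mx proteins had 5 of 6 tested genes lower, none higher and a median of -2.49, where 0.702% of all genes were lower. This list was chosen with earlier results of these data known, so its values are set side by side and nothing is read from the count. Gbp3 fell by 3.08 ± 0.23, Gbp6 fell by 3.02 ± 0.27, Gbp7 fell by 1.99 ± 0.15 and Mx1 fell by 2.58 ± 0.33 (limma, adjusted p = 4.36e-05, 0.000146, 5.02e-05 and 0.00245). Dimmer probe sets of Gbp6 and Gbp7 also passed, at -3.83 ± 0.28 and -3.64 ± 0.56 (limma, adjusted p = 4.36e-05 and 0.00969). The fifth was Gbp2, which fell by 2.40 ± 0.33 (adjusted p = 0.0038), and Gbp8 did not pass, at -0.72 ± 0.33 (adjusted p = 0.507). Both are named after their values were seen.

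Markers of cells that make interferon gamma or carry the GTPases were read in the same arrays. Of 17 T and NK cell markers 10 were tested and none passed, with a median of -0.14, and their mean log2 level was 7.12 to 7.91 in controls and 6.82 to 7.71 after smoke. Cd3e, Cd4, Cd8b1 and Ncr1 lay below the filter. Of 16 macrophage and monocyte markers 15 were tested and none passed, with a median of -0.40 and a mean level that ran from 10.03 to 10.64 on control arrays and 9.53 to 10.21 on smoke arrays. Of 11 neutrophil markers 8 were tested, with a median of -0.66, and 3 fell, against 0.702% of all genes lower. Of these, S100a9 fell by 1.995 ± 0.28, S100a8 fell by 1.60 ± 0.24 and Mmp8 fell by 1.39 ± 0.22 (limma, adjusted p = 0.00423, 0.00777 and 0.0128). In these 3 every smoke array lay below every control array, against 2.11% of all genes. The mean level of the 8 tested markers, these 3 included, was 9.76 to 9.92 in controls and 8.74 to 9.28 after smoke. The other 5 did not pass, and their groups overlapped, with changes of -0.84 for Camp, -0.47 for Mmp9, -0.26 for Csf3r, -0.06 for Ltf and 0.0012 for Ngp. The part of neutrophils in the members' values was not tested. The label of lung was borne out by Sftpc and Scgb1a1, at control means of 14.38 and 14.46, and none of 10 tested lung markers passed.

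**Figure D5:**
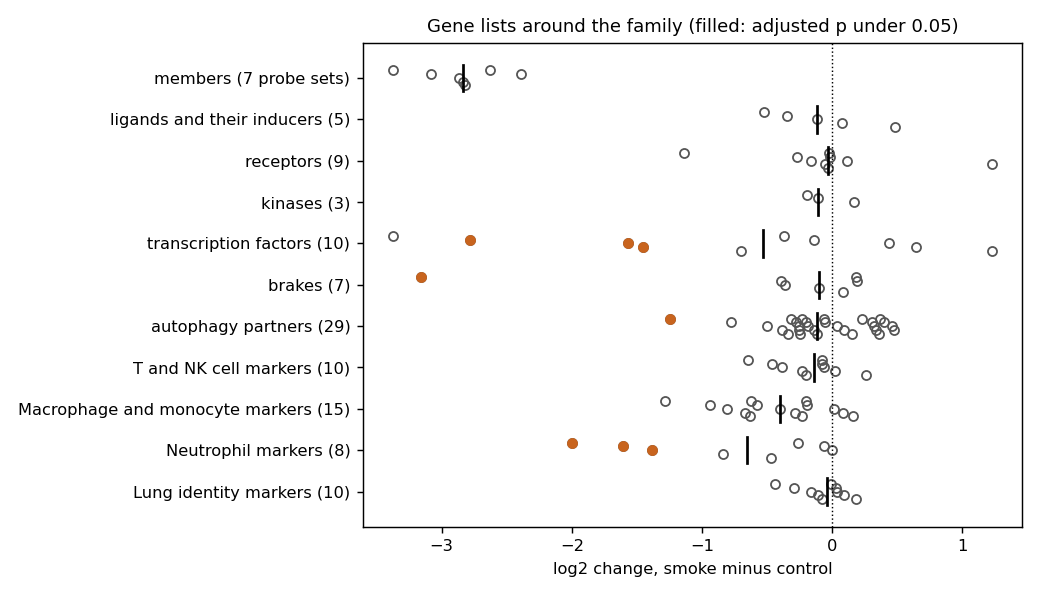
Log2 change, smoke minus control, of each tested gene (1 circle) in the lists around the family, with the member probe sets in the top row drawn open whatever their p, filled circles for genes at an adjusted p under 0.05 by limma and a bar at each list's median. Receptors, kinases and autophagy partners centre near 0, at medians of -0.03, -0.11 and -0.11, and the members lie at -3.37 to -2.39.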

How the data were processed

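The authors deposited 1 intensity on a linear scale per probe set and array. The program that made it is not given in the sources used here, and the mean without the lowest and highest values was alike on every array. The members and gene lists were chosen with earlier results of these data known. Log2 was taken of the deposited intensities, the 1 value of 0 set to the smallest positive value, and the arrays were quantile normalized. The 10th percentile (an intensity of 15.8) served as a floor. Without 64 control probe sets of 45101, the brightest 60% by mean, 27022, were tested. Symbols came from the platform annotation (34945 probe sets with 1 symbol, 932 with several, 9160 with none). A gene is its brightest tested probe set with 1 symbol. Groups were compared with limma 3.58.1 in R 4.3.3 (lmFit, eBayes with trend, Benjamini-Hochberg over all probe sets, two-sided), and the fit was tested on simulated data. No 2 arrays held identical values. Named genes followed a written rule: all members and family loci, fixed signalling and autophagy genes, up to 8 and 4 more of these that passed, up to 4 dynamin-like GTPases by p, and the 8 most and 3 least like genes within groups. Promoter windows from RefSeq (GRCm38.p6) were aligned with Biopython 1.88. Plots used matplotlib 3.10.9. Protein sequences were not used here. Alternatives covered normalization, filter, floor, variance model, weights, probe set choice, single arrays, RNA quality, sex marker, replicate number and the rule of the series' design text.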

Additional observations from a re-analysis of the deposited data

Results flagged for a closer look

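In 72 groups of values examined for the named genes, 3 held a sample farther from the others than Dixon's 95% critical value allows, where chance flags about 1 in 20. Irgq read 8.71 in control array 1, and 8.25 to 8.33 in the other controls. Ifngr1 read 11.37 in smoke array 2, and 11.62 to 11.72 in the other smoke arrays. Irf8 read 8.93 in smoke array 4, and 9.39 to 9.60 in the other smoke arrays. No member probe set held such a sample.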

How the results depend on the processing

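Under 25 alternatives the number of member genes lower stayed at 5, of member probe sets lower at 7 and of other family loci lower at 1. Interferon signalling genes changed numbered 4 to 6 and dynamin-like GTPases lower 4 to 6. Among the gains, Mx2, below the filter over all 10 arrays, passed at -4.42 with no filter and also without each smoke array in turn, and Ptpn2 was higher in the arrays numbered 1 to 4, at 0.70 (limma, adjusted p = 0.0361 with the replicate block and 0.0456 without). The log2 changes of the 7 member probe sets kept their sign under each of 24 alternatives, and 1 of them moved by more than the spread between replicates, Iigp1 1419043_a_at, to -2.96 without smoke arrays 1 and 2. Autophagy partners changed numbered 2 with the arrays numbered 1 to 4 and the replicate number as a block, and also 2 in those arrays without the block, where Pik3c3 passed as well. Deviations of same-numbered arrays correlated at -0.07 to 0.17. These correlations cannot exclude a shared litter or batch, and the labels do not say whether the numbers pair samples. The replicate block left 7 member probe sets lower. S100a8 lost its call with the values as deposited, with median centring and without control replicate 2, and Mmp8 without control replicate 1, 2 or 3. Stat2 passed with the floor at the 25th percentile, with array weights and with the actin ratio as a covariate. With 4 and 6 arrays and no detection calls, the signal over background of dim genes such as Ifng and Socs1 is not known.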
